A study of Arabidopsis thaliana with 12 samples.

Results

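Receptor-like proteins (RLPs) are a family of cell-surface receptors in plants, and 51 genes of this family were followed here in rosette leaves of Arabidopsis thaliana. The 51 genes were taken by their locus identifiers from a family list that includes the developmental genes CLV2 (RLP10) and TMM (RLP17). All 51 had a row in the table of 34262 genes and a count in at least 1 library. Transcripts were measured by strand-specific mRNA sequencing with paired reads of 150 bases in 12 libraries, 3 for each of 4 genotypes. The genotypes were the double mutant ka120 pad4, the double mutant ka120 ndr1, the single mutant ka120 and the wild type Col-0. All were in the Col-0 ecotype, 3 weeks old, untreated and grown in soil at 22 °C in days of 16 h light and nights of 8 h. Single pad4 and ndr1 mutants were not analysed here, and the sources used here do not name the alleles. No label says that replicates were separate plants or pools, so the spread behind every p-value is that between these libraries and may be technical.

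An RLP carries leucine-rich repeats outside the cell, a single membrane span and a short tail with no kinase. Immune RLPs signal through the adaptor kinase SOBIR1, which binds them before any ligand is present, and recruit the co-receptor BAK1 or a relative once a microbial molecule is bound. For RLP23 the signal is known to pass through EDS1, PAD4 and the helper receptors of the ADR1 family inside the cell. CLV2 and TMM work in development instead, CLV2 in meristem size and TMM in the spacing of stomata. KA120 is a nuclear transport receptor of the importin-beta type, PAD4 is a lipase-like immune regulator that pairs with EDS1, and NDR1 is a plasma membrane protein needed by several intracellular immune receptors.

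Library totals were between 68436911 and 85884840 counts. The transcript of KA120, taken from background knowledge to be AT3G08960, was lower in ka120 than in Col-0 (log2 fold change -2.47 ± 0.15, SE). NDR1 was at 0 to 0.166 CPM in ka120 ndr1 and 11.5 to 14.5 in ka120. CPM are counts scaled to an effective library size, the library total times edgeR's TMM factor (not related to the gene TMM). These factors lay between 0.843 and 0.874 for the Col-0 libraries, against 1.01 to 1.09 for those of the mutants. Small differences between a mutant and Col-0 therefore depend on the factors. PAD4 does not check the ka120 pad4 label, because its transcript was still present there at 7.73 to 19.1 CPM, against 54.6 to 107 CPM in ka120 and 4.6 to 5.54 CPM in Col-0. The 4 leaf markers, RBCS1A, RCA, CAB3 and LHB1B1, lay between 447 and 20100 CPM in every library. They were all lower in ka120 than in Col-0, with a median log2 fold change of -0.80, and their part in the results below was not tested. The seed genes CRU3 and OLEO1 and the meristem genes WUS and CLV3 stayed under 1 CPM in every library, and the third meristem gene, STM, lay between 3.38 and 5.62 CPM. Of 4 root markers, WOX5 (at most 0.494 CPM) and CASP1 (at most 1.22 CPM) were higher in ka120 than in Col-0, and COBL9 and SHR were not called. The call of CASP1 ended without each of 9 single libraries (adjusted p up to 0.132), with no filter on low counts (adjusted p = 0.0513) and with limma (adjusted p = 0.0562).

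Most of the family stood higher in ka120 than in Col-0. Of the 51 members, 33 were called higher (64.7%) and 7 lower (13.7%), where 28.0% of the 22351 genes tested were called higher and 27.0% lower. A call is an adjusted p under 0.05 in edgeR's quasi-likelihood test with Benjamini-Hochberg adjustment over all genes tested. The median log2 fold change of the 49 tested members was 2.52, against 0.02 for all genes tested, and the quartiles of the members were -0.03 and 4.36, against -0.41 and 0.45 for all genes. In 15 members the fitted level in ka120 was at least 16-fold that in Col-0 (log2 fold change of 4 or more). They include the 10 members with low counts in Col-0 named in the next paragraph, whose folds are uncertain. The share of all tested genes at this size is not given here. RLP15 and RLP22 were at or near 0 in every library and were not tested. In whole leaves, fewer cells of a type and less RNA per cell cannot be told apart.

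Low counts in Col-0 touch this count. Of the 49 tested members, 10 did not reach the minimum count in all 3 Col-0 libraries. They were RLP7, RLP11, RLP20, RLP21, RLP24, RLP28, RLP39, RLP43, RLP52 and RLP53. They passed the filter only with libraries of other genotypes, which favours a higher call there. These 10 were 20.4% of tested members, against 10.2% of all genes tested. Of the 39 members that reached the minimum in all 3 Col-0 libraries, 23 were higher in ka120 (59.0%) and 7 lower (17.9%). The shares among 20065 such genes were 27.1% and 29.9%. All 33 higher calls and 5 of the 7 lower calls were kept when each library was left out in turn.

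Summed over the 51 members, the level was 608, 870 and 648 CPM in ka120 pad4, 825, 1100 and 954 CPM in ka120 ndr1, 1370, 1330 and 1110 CPM in ka120 and 274, 281 and 289 CPM in Col-0. Every ka120 library lay above every library of the double mutants, though ka120 ndr1 replicate 2 came close to ka120 replicate 3, and Col-0 lay below all others.

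**Figure D1:**
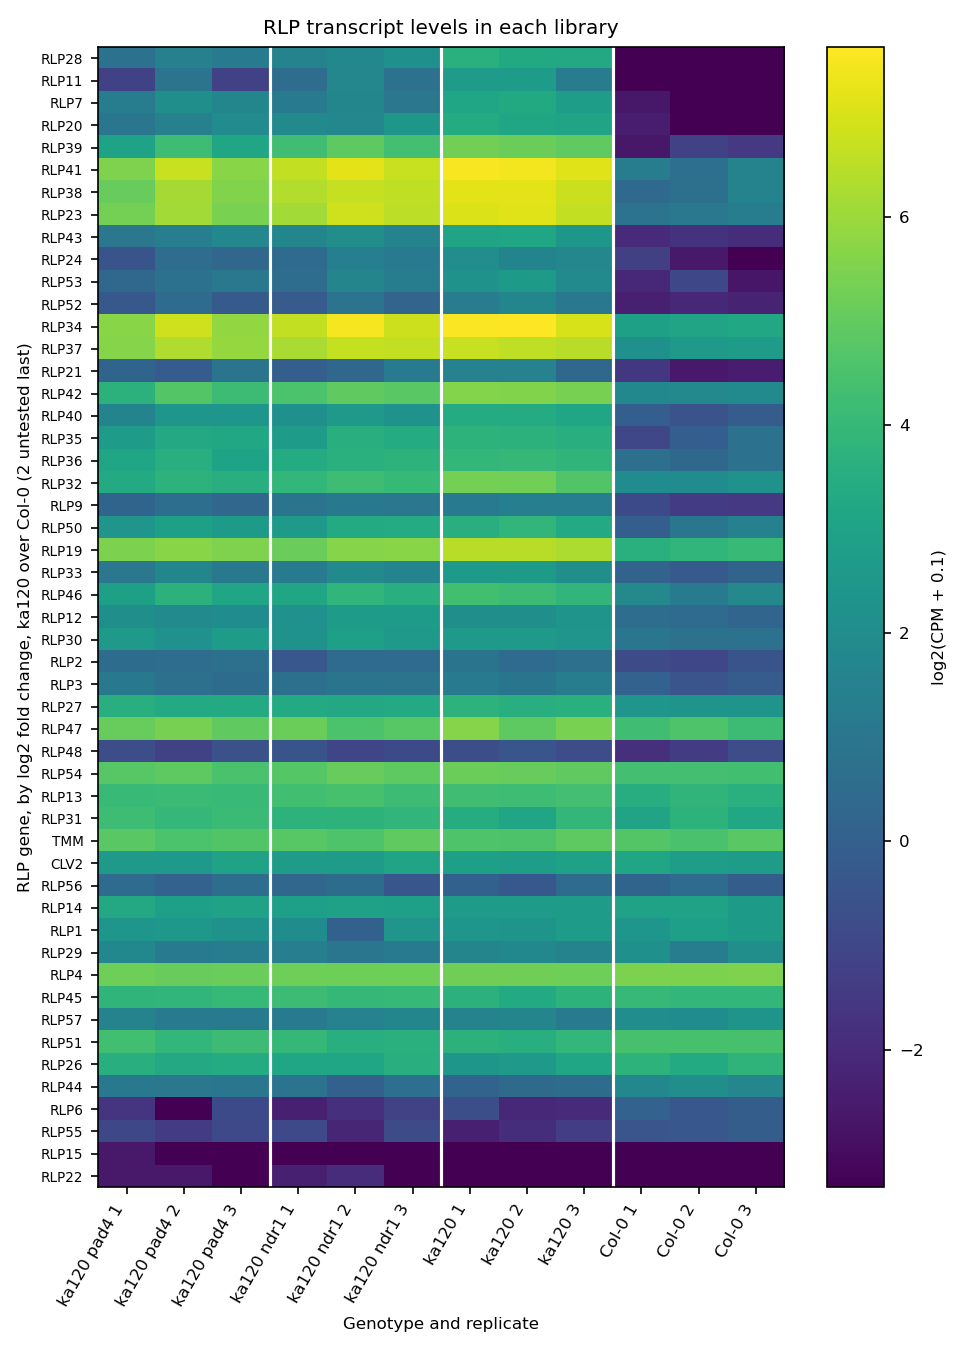
Level of each of the 51 RLP genes (rows, ordered by log2 fold change of ka120 over Col-0, with the 2 untested genes last) in each of the 12 libraries (columns), as log2(CPM + 0.1). Brighter means higher: in the upper rows, from RLP28 to RLP3, the 3 Col-0 columns are darker than the 3 ka120 columns, with both double mutants between them in most rows.

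The members with the largest differences had next to no transcript in Col-0. RLP28 (AT2G33080) had 1.6, 2.61 and 2.14 CPM in ka120 pad4, 2.85, 3.33 and 4.45 CPM in ka120 ndr1, 12.2, 10.1 and 9.66 CPM in ka120, and 0 counts in all 3 Col-0 libraries. Its mean in ka120 was at least 56.4-fold higher than in Col-0, taking a floor of 12 counts per library, and its adjusted p was 5.46e-08. RLP11 (AT1G71390) was also at 0 counts in Col-0 and had 0.332, 1.74 and 0.329 CPM in ka120 pad4, 1.39, 3.23 and 1.67 CPM in ka120 ndr1 and 6.46, 6.6 and 2.33 CPM in ka120. It was at least 27.1-fold higher in ka120 than in Col-0 (adjusted p = 7.33e-05). For both genes the libraries of ka120 and ka120 pad4 did not overlap.

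RLP7 (AT1G47890) had 2.43, 4.32 and 3.15 CPM in ka120 pad4, 2.1, 3.13 and 1.92 CPM in ka120 ndr1, 8.88, 10.1 and 6.74 CPM in ka120, and 0.0651, 0 and 0 CPM in Col-0. RLP20 (AT2G25440) had 1.88, 2.59 and 3.77 CPM in ka120 pad4, 3.57, 3.21 and 5.49 CPM in ka120 ndr1, 10.5, 8.84 and 8.2 CPM in ka120, and 0.0814, 0 and 0 CPM in Col-0. Each of these genes had a count in 1 Col-0 library only, so their log2 fold changes for ka120 over Col-0, 8.57 ± 0.56 and 8.36 ± 0.58, rest on 4 and 5 counts there. RLP24 (AT2G33020) was lower throughout, at 0.608, 1.43 and 1.12 CPM in ka120 pad4, 1.33, 2.51 and 2.27 CPM in ka120 ndr1, 4.03, 2.96 and 3.26 CPM in ka120, and 0.325, 0.0674 and 0 CPM in Col-0 (ka120 over Col-0, log2 4.73 ± 0.69). In all of these the ka120 libraries were the highest and did not overlap with Col-0.

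A second set had counts in every Col-0 library and stood far higher in ka120. RLP41 (AT3G25010) had 45.4, 104 and 51.8 CPM in ka120 pad4, 99.1, 145 and 104 CPM in ka120 ndr1, 183, 171 and 137 CPM in ka120, and 2.31, 1.5 and 2.89 CPM in Col-0. Its neighbour RLP39 (AT3G24900) had 8.08, 18.5 and 8.89 CPM in ka120 pad4, 19.5, 30.3 and 20.3 CPM in ka120 ndr1, 39.3, 36.1 and 31.4 CPM in ka120, and 0.0651, 0.337 and 0.255 CPM in Col-0. RLP38 (AT3G23120) had 33.4, 72.1 and 46.5 CPM in ka120 pad4, 83.2, 103 and 94.7 CPM in ka120 ndr1, 145, 145 and 107 CPM in ka120, and 1.25, 1.53 and 2.86 CPM in Col-0. The log2 fold change of ka120 over Col-0 was 7.33 ± 0.45 for RLP39, 6.18 ± 0.37 for RLP41 and 6.12 ± 0.35 for RLP38 (edgeR adjusted p = 1.28e-07, 9.22e-08 and 7.12e-08). RLP43 (AT3G28890) was lower in level, with 1.91, 2.46 and 3.33 CPM in ka120 pad4, 3.2, 4.14 and 2.92 CPM in ka120 ndr1, 8.4, 8.72 and 5.44 CPM in ka120, and 0.146, 0.202 and 0.17 CPM in Col-0 (log2 5.43 ± 0.31). No library of ka120 overlapped with Col-0 in any of these 4 genes. RLP39 and RLP43 are, however, among the 10 members with low counts in Col-0. RLP39 had 4, 20 and 18 counts there and RLP43 had 9, 12 and 12, so their fold changes rest on few counts.

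Several of these members had similar sequence before their transcription starts. Among all 1275 pairs of the 51 windows of 300 bases before the annotated starts, 28 pairs gave a local alignment score of at least 60. Neighbours accounted for some of them: RLP39 and RLP41 were identical at 93.2% of 265 aligned bases, and RLP37 and RLP38 at 77.4% of 217. Others joined genes on different stretches of chromosome 2 or on different chromosomes. RLP23 matched RLP28 at 82.1% of 262 bases and RLP20 matched RLP23 at 78.3% of 249, RLP23 matched RLP24 at 85.0% of 120, and RLP43 matched RLP53 at 94.4% of 144. These 6 windows are shown because their genes all stood higher in ka120 than in Col-0. They were picked after the alignments were seen, and shared descent of the genes also gives shared sequence. Windows of members not higher in ka120 also reached the score of 60. RLP45 matched RLP9 at 72.5% of 211 bases, and CLV2 matched RLP9 at 77.8% of 162. Windows of genes outside the family were not aligned, so these scores have no background beside them. Coordinates are those of the RefSeq assembly TAIR10.1, genes were matched by locus identifier (51 of 51), and every sequence is written on the gene's own strand. Capitals mark the W-box letters TTGACC or TTGACT, or AGTCAA or GGTCAA where the match is on the other strand. The windows are chr2:14031698-14031997 (plus strand) for RLP28, chr2:13862615-13862914 (minus) for RLP23, chr2:14016517-14016816 (minus) for RLP24, chr2:10826435-10826734 (plus) for RLP20, chr3:10898901-10899200 (minus) for RLP43 and chr5:9525479-9525778 (minus) for RLP53.
RLP28: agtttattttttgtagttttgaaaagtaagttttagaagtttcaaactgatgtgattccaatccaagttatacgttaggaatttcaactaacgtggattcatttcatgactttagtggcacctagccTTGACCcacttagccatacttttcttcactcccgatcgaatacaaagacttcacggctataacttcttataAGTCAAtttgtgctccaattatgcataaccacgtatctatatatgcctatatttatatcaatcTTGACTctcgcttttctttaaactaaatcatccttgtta
RLP23: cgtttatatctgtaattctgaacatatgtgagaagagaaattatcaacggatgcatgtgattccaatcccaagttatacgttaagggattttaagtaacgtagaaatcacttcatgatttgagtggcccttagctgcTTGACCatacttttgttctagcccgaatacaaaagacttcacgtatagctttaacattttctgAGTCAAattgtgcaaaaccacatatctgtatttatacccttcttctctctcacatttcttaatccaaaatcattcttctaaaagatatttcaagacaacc
RLP24: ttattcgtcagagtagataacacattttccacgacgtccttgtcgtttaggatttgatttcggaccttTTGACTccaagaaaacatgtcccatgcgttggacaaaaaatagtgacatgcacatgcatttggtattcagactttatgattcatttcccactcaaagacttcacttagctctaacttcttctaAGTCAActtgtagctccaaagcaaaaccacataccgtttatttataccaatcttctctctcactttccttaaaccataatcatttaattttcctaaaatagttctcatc
RLP20: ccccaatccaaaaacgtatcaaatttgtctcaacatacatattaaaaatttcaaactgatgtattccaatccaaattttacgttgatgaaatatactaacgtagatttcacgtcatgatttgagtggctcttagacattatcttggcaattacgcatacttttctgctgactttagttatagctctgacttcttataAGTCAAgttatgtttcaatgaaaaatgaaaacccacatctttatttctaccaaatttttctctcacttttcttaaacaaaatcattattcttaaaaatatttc
RLP43: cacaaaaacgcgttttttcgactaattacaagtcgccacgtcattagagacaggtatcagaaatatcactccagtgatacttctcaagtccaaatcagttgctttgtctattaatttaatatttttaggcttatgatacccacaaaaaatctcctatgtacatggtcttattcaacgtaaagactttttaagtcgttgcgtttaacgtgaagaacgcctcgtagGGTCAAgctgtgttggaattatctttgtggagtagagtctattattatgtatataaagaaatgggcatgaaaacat
RLP53: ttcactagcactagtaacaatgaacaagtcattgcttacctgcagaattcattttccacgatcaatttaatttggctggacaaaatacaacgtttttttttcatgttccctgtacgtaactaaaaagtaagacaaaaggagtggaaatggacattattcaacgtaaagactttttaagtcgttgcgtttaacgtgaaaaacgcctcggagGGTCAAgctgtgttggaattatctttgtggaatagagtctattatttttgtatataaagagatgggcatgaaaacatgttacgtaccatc
RLP28 held 3 W-boxes, RLP23 and RLP24 held 2 each, and RLP20, RLP43 and RLP53 held 1 each. The annotated start of RLP20 coincides with its first coding base, so its window may begin inside the transcript.

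W-boxes are the letters that WRKY factors are known to bind. Searched on both strands, TTGACC or TTGACT was in the window of 26 of 51 members (51.0%) and in 32.3% of 27438 annotated windows of the same length. By direction, 20 of the 33 members higher in ka120 held it (60.6%), 4 of the 7 lower members, and 2 of the 11 members not called or not tested. TGACG, the letters bound by TGA factors, was in 15 members (29.4%) and in 21.3% of all windows, and shares the letters TGAC with the W-box. The G-box CACGTG was in 1 member and in 7.09% of all windows. Some windows overlap another annotated gene, as those of RLP30 and RLP37 do. Similar windows, such as those of RLP43 and RLP53, are not independent in these shares. A match describes the letters of the window, and binding was not measured.

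Of the 5 members with a described microbial ligand, 4 were higher in ka120 than in Col-0, and RLP1 was not called. RLP23 (AT2G32680, chromosome 2, 13859769 to 13862614), the receptor of the nlp20 peptide of microbial NLP toxins, had 40.8, 68.9 and 43.5 CPM in ka120 pad4, 69.3, 116 and 93.3 CPM in ka120 ndr1, 132, 138 and 97.2 CPM in ka120, and 1.69, 2.02 and 2.41 CPM in Col-0. Its log2 fold change for ka120 over Col-0 was 5.90 ± 0.28 (edgeR adjusted p = 3.12e-08). Col-0 was far below every mutant library. The ka120 pad4 libraries lay below those of ka120 ndr1, though the closest, at 68.9 and 69.3 CPM, nearly met. The gene on the opposite strand that overlaps RLP23, AT2G32670, averaged 1.03 CPM in ka120 and 0.871 CPM in Col-0.

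RLP42 (AT3G25020, chromosome 3, 9116684 to 9119804), which recognises fungal endopolygalacturonases, had 12.9, 25.8 and 18.1 CPM in ka120 pad4, 23, 30.5 and 28.5 CPM in ka120 ndr1, 48.3, 47.5 and 41.3 CPM in ka120, and 3.35, 3.47 and 3.52 CPM in Col-0 (ka120 over Col-0, log2 3.73 ± 0.22). RLP32 (AT3G05650, chromosome 3, 1644882 to 1648742), the receptor of bacterial translation initiation factor 1, had 10.2, 13.5 and 11.4 CPM in ka120 pad4, 15.1, 18.5 and 15.9 CPM in ka120 ndr1, 40.2, 39.5 and 25 CPM in ka120, and 3.97, 3.94 and 4.82 CPM in Col-0 (3.04 ± 0.19). In both, the ka120 libraries were above all libraries of the double mutants, which were in turn above Col-0.

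RLP30 (AT3G05360, chromosome 3, 1530668 to 1533361), needed for the response to the fungal elicitor SCFE1, had 6.03, 4.55 and 6.45 CPM in ka120 pad4, 4.87, 7.19 and 6.02 CPM in ka120 ndr1, 6.06, 5.77 and 5.1 CPM in ka120, and 1.86, 1.6 and 1.62 CPM in Col-0 (ka120 over Col-0, log2 1.74 ± 0.18). The 3 mutant genotypes overlapped with each other and all lay above Col-0. RLP30 overlaps AT3G05350 on the same strand, which averaged 42.3 CPM in ka120 and 77.4 CPM in Col-0, the opposite direction. RLP1 (AT1G07390), reported to perceive the bacterial elicitor eMax, had 5.35, 5.56 and 4.91 CPM in ka120 pad4, 3.89, 0.97 and 5.18 CPM in ka120 ndr1, 5.16, 5.02 and 6.4 CPM in ka120, and 5.37, 7.06 and 6.15 CPM in Col-0. Its log2 fold change for ka120 over Col-0 was -0.17 ± 0.39 (adjusted p = 0.743), and ka120 ndr1 replicate 2 stood below all other libraries.

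A further 3 members have a described role in resistance. RLP3 (RFO2, AT1G17250), which contributes to resistance to Fusarium oxysporum, had 2.07, 1.55 and 1.36 CPM in ka120 pad4, 1.53, 1.75 and 1.74 CPM in ka120 ndr1, 2.13, 1.8 and 2.34 CPM in ka120, and 0.976, 0.641 and 0.808 CPM in Col-0 (ka120 over Col-0, log2 1.37 ± 0.23). RLP52 (AT5G25910), linked to powdery mildew resistance, had 0.705, 1.32 and 0.768 CPM in ka120 pad4, 0.793, 1.7 and 1.08 CPM in ka120 ndr1, 2.42, 3.13 and 2.06 CPM in ka120, and 0.0976, 0.135 and 0.113 CPM in Col-0 (4.44 ± 0.41). Both were above Col-0 in every mutant library. RLP3 overlaps AT1G17255 on the opposite strand, which averaged 6.35 CPM in ka120 and 3.65 CPM in Col-0. RLP51 (SNC2, AT4G18760), whose gain-of-function form activates immunity, went the other way and is given with the lower members.

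Of the developmental members, CLV2 and TMM were not called in any comparison. CLV2 (AT1G65380) had 5.81, 6.03 and 7.9 CPM in ka120 pad4, 6.39, 6.29 and 8.28 CPM in ka120 ndr1, 7.16, 6.99 and 7.5 CPM in ka120, and 8.53, 7.01 and 6.52 CPM in Col-0. TMM (AT1G80080) had 28.3, 22.7 and 25.5 CPM in ka120 pad4, 27.5, 24.7 and 31.4 CPM in ka120 ndr1, 24.3, 23.5 and 29.8 CPM in ka120, and 26.2, 22.5 and 28.5 CPM in Col-0. All 4 genotypes overlapped for both genes, and the log2 fold changes of ka120 over Col-0 were -0.03 ± 0.15 and 0.01 ± 0.13, whose signs turned when single libraries were left out. RLP44 (AT3G49750), which links the state of the cell wall to brassinosteroid receptors, was lower, with 2.03, 1.95 and 1.85 CPM in ka120 pad4, 1.68, 0.942 and 1.49 CPM in ka120 ndr1, 1.01, 1.28 and 1.36 CPM in ka120, and 3.39, 4.18 and 3.3 CPM in Col-0. Every mutant library lay below every Col-0 library, and the log2 fold change of ka120 over Col-0 was -1.57 ± 0.23 (edgeR adjusted p = 8.44e-05).

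**Figure D2:**
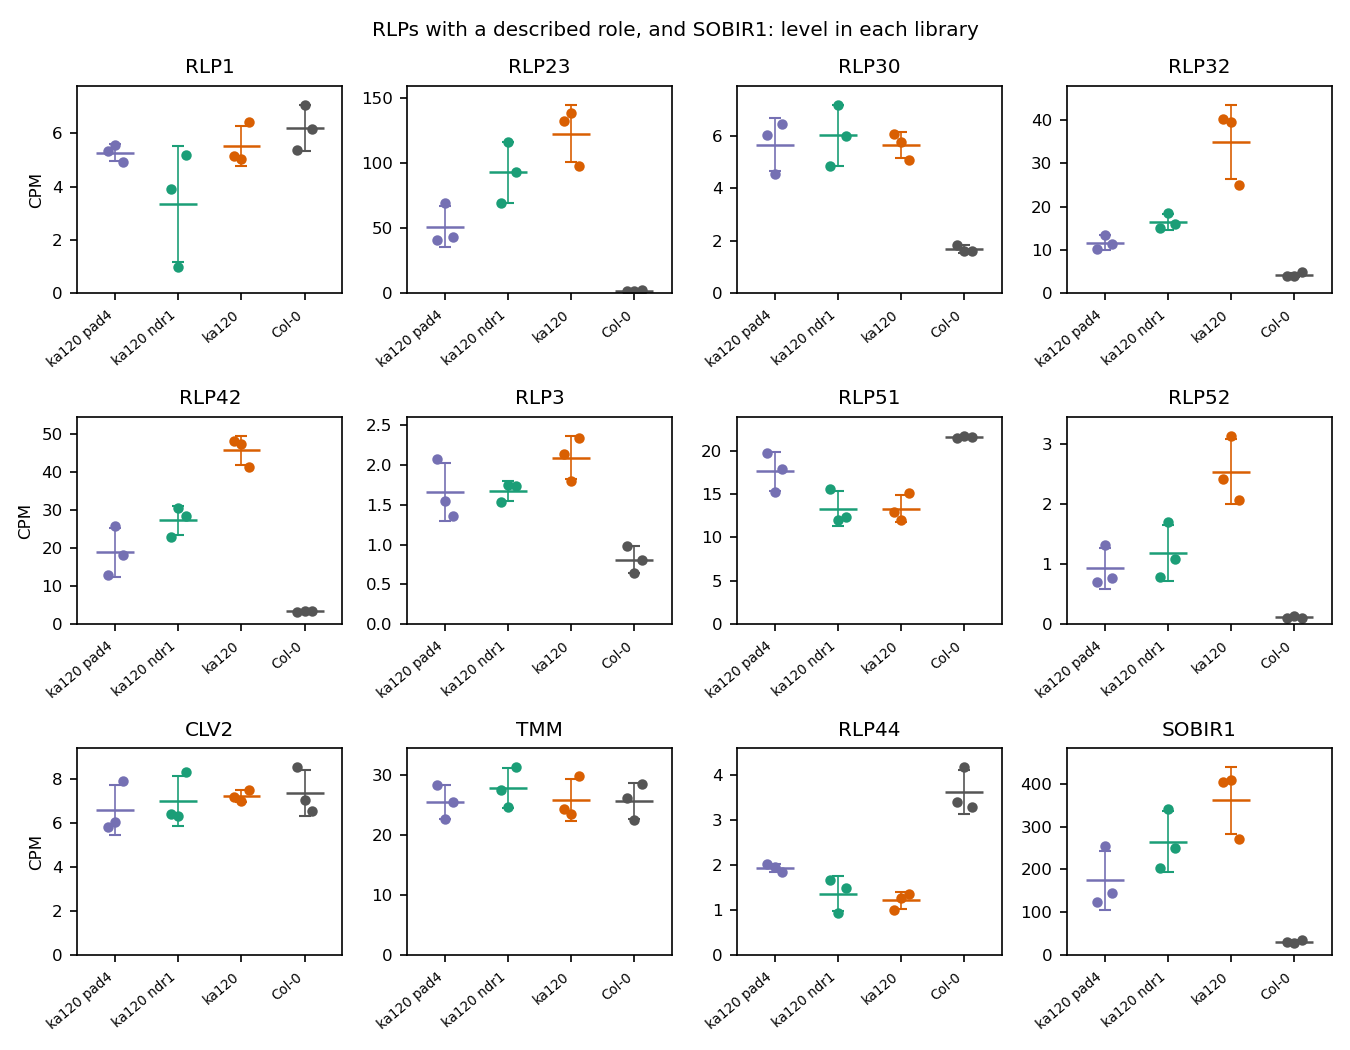
Level in CPM (linear axis from 0) of the 11 RLP genes with a described role and of SOBIR1, for ka120 pad4, ka120 ndr1, ka120 and Col-0 from left to right. Points are libraries, horizontal lines are means and bars are SD (n = 3): RLP23, RLP32, RLP42, RLP52 and SOBIR1 are highest in ka120 and lowest in Col-0, CLV2 and TMM overlap in all genotypes, and RLP44 and RLP51 are highest in Col-0.

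The other 6 members lower in ka120 than in Col-0 had log2 fold changes between -1.95 and -0.25. RLP51 had 19.7, 15.2 and 17.9 CPM in ka120 pad4, 15.6, 12 and 12.4 CPM in ka120 ndr1, 12.9, 12 and 15.1 CPM in ka120, and 21.5, 21.7 and 21.6 CPM in Col-0 (ka120 over Col-0, log2 -0.69 ± 0.12). RLP26 (AT2G33050) had 11.7, 9.72 and 10.7 CPM in ka120 pad4, 8.73, 8.74 and 11.6 CPM in ka120 ndr1, 5.44, 5.96 and 8.51 CPM in ka120, and 13.4, 10.4 and 14 CPM in Col-0 (-0.92 ± 0.18). RLP55 (AT5G45770), the largest of these differences, was at low levels, with 0.415, 0.269 and 0.439 CPM in ka120 pad4, 0.431, 0.125 and 0.491 CPM in ka120 ndr1, 0.094, 0.17 and 0.295 CPM in ka120, and 0.651, 0.674 and 0.851 CPM in Col-0 (-1.95 ± 0.56). In each of the 3 genes the ka120 libraries lay below all Col-0 libraries. RLP55 had 8, 16 and 26 counts in ka120 and did not reach the minimum count in every library there. It passed the low-count filter only with libraries of other groups.

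RLP57 (AT5G65830) had 2.86, 2.15 and 2.11 CPM in ka120 pad4, 2.12, 2.78 and 3.19 CPM in ka120 ndr1, 2.91, 3.09 and 2.11 CPM in ka120, and 4.04, 3.86 and 5.05 CPM in Col-0. Its log2 fold change of ka120 over Col-0 was -0.67 ± 0.21 (adjusted p = 0.0163), and the call ended without Col-0 replicate 3 (adjusted p = 0.0704) or ka120 replicate 3 (adjusted p = 0.0677). RLP45 (AT3G53240) had 14.2, 14.7 and 16.1 CPM in ka120 pad4, 17.9, 15.7 and 16 CPM in ka120 ndr1, 13.2, 10.3 and 13.4 CPM in ka120, and 16.3, 15 and 15.3 CPM in Col-0. Its difference of -0.34 ± 0.11 (adjusted p = 0.016) was not called without Col-0 replicate 1 (adjusted p = 0.0567) or ka120 replicate 2 (adjusted p = 0.0709). RLP4 (AT1G28340), the member with the highest level in Col-0, was at 36.7 to 38.4 CPM in ka120 and 44.4 to 45.9 CPM in Col-0, with no overlap (-0.25 ± 0.06). By library total alone, without the TMM factors, the ka120 and Col-0 libraries overlapped for RLP4 and for RLP45. The lower calls of RLP4 and RLP45 thus depend on those factors, and a fit without them is not given here.

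Among the members higher in ka120 and not described above, log2 fold changes of ka120 over Col-0 ran between 0.64 ± 0.10 for RLP13 and 4.59 ± 0.53 for RLP53. RLP34 had 126 to 198 CPM in ka120 and 7.44 to 9 CPM in Col-0 (4.36 ± 0.34), and RLP37 had 88.8 to 106 CPM in ka120 and 4.48 to 6.62 CPM in Col-0 (4.09 ± 0.21). RLP21 (4.09 ± 0.58), RLP40 (3.70 ± 0.25), RLP35 (3.67 ± 0.37), RLP36 (3.37 ± 0.17), RLP9 (2.85 ± 0.26) and RLP50 (2.73 ± 0.34) followed. RLP19 had 78.6 to 88.1 CPM in ka120 and 12.2 to 16.7 CPM in Col-0 (2.54 ± 0.15), close to RLP33 (2.53 ± 0.26) and RLP46 (2.52 ± 0.25). RLP12 (1.83 ± 0.17), RLP2 (1.63 ± 0.30), RLP27 (1.31 ± 0.09), RLP47 (1.00 ± 0.20) and RLP54 (0.74 ± 0.11) had the smaller differences. The remaining members that were tested and not called, RLP6, RLP14, RLP29, RLP31, RLP48 and RLP56, had log2 fold changes between -1.64 ± 0.90 for RLP6 and 0.83 ± 0.43 for RLP48.

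Some of these counts may be shared between copies. Identical stretches of 150 bases link RLP40 with RLP42 (5.01% and 6.39% of their windows), RLP34 with RLP35 (3.37% and 3.05%), and RLP47 and RLP48 with AT4G13900 (3.20% and 5.05%), so their separate values are uncertain. In all, 18 members overlap another annotated gene, 15 of them on the opposite strand. The libraries were strand-specific, but the sources used here do not give the strand setting of the counting. On the opposite strand, AT3G23100 at RLP37 averaged 18.6 CPM in ka120 and 11.4 CPM in Col-0, and AT3G25012 at RLP41 averaged 1.71 CPM in ka120 and 0.137 CPM in Col-0. In Col-0 the opposite-strand gene was above the mean of the member at RLP37 (5.68 CPM), at RLP40 (6.02 CPM, against 0.759 CPM for RLP40), at RLP39 (4.38 CPM, against 0.219 CPM), at RLP46 (5.55 CPM, against 3.04 CPM) and at RLP50 (2.82 CPM, against 1.83 CPM). In ka120 the means of these 5 opposite-strand genes lay below those of the members. At RLP3 the opposite-strand gene AT1G17255 was above the member in both genotypes and was itself higher in ka120. It averaged 6.35 CPM in ka120 and 3.65 CPM in Col-0, against 2.09 and 0.808 CPM for RLP3, so the separate value of RLP3 is uncertain. RLP47 overlaps AT4G13800 on its own strand, at 2.08 CPM in ka120 and 9.98 CPM in Col-0.

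The order of the family's levels differed between genotypes when counts were put on a common scale per kb of exon. In ka120, RLP41 (56.8 ± 8.26 CPM per kb, SD, n = 3), RLP38 (55.3 ± 9.22), RLP34 (52.4 ± 11.9), RLP23 (43.0 ± 7.74) and RLP37 (38.5 ± 3.50) led, and neighbours in this order overlapped within their spread. RLP19 followed at 22.6 ± 1.37, below the lowest library of RLP37, and RLP4 at 15.3 ± 0.368, which overlapped with RLP42, TMM and RLP47. In Col-0, RLP4 led at 18.3 ± 0.316 CPM per kb, above all libraries of TMM at 14.1 ± 1.66. RLP51 came next at 12.1 ± 0.0417, just under the lowest TMM library, and RLP54 (7.28 ± 0.0924) and RLP47 (6.71 ± 1.05) overlapped. The 5 leading members held 50.1% to 56.1% of the family's summed CPM in ka120 and 46.3% to 48.2% in Col-0.

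**Figure D3:**
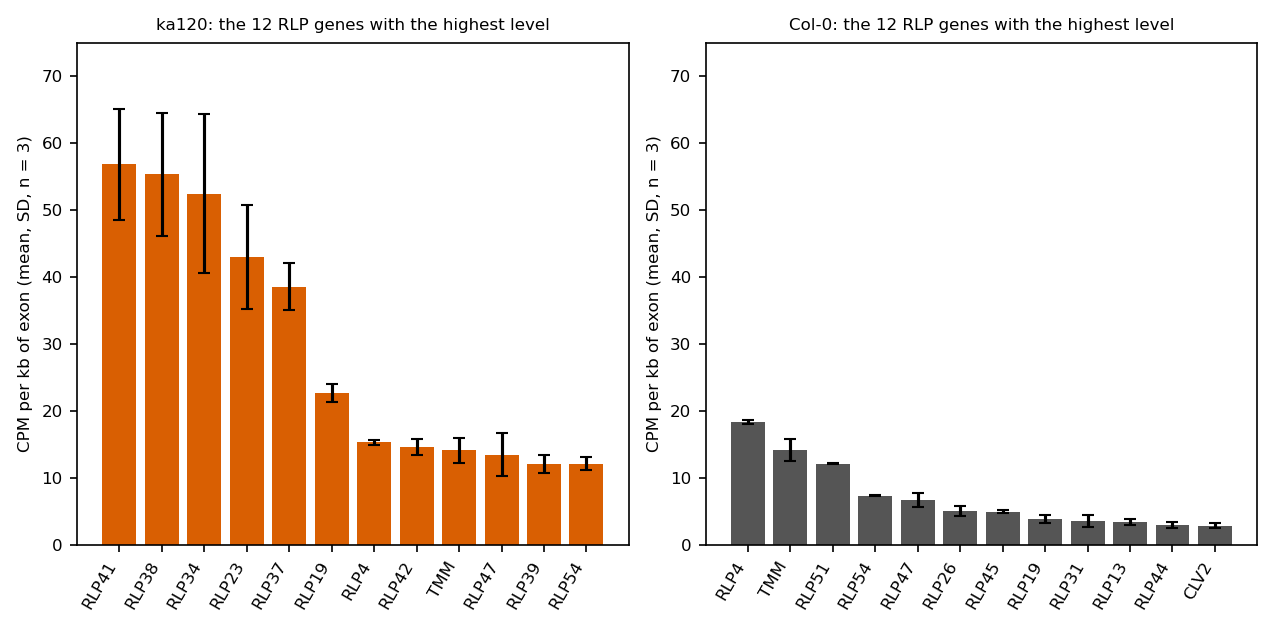
Mean level in CPM per kb of exon (bars from 0, error bars SD, n = 3) of the 12 RLP genes with the highest level in ka120 (left) and in Col-0 (right), on the same axis. RLP41, RLP38, RLP34, RLP23 and RLP37 lead in ka120 at 38.5 to 56.8 CPM per kb, and RLP4, TMM and RLP51 lead in Col-0 at 12.1 to 18.3.

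Many RLP genes stand side by side in the genome. With gaps of at most 50 kb, 31 of the 51 members fell into 12 locus clusters and 20 stood alone. In ka120, 25 of the 31 clustered members were higher than in Col-0 and 1 was lower. Of the 20 single members, 8 were higher and 6 lower, where the shares of all tested genes were 28.0% and 27.0%. The difference between clustered and single members was not tested. In 7 clusters every member was higher. The clusters of RLP39, RLP40, RLP41 and RLP42, with coding sequences identical at 89.7% to 95.7% of aligned bases, and of RLP36, RLP37 and RLP38 were among them. A single cluster held changes in both directions: RLP24, RLP27 and RLP28 were higher and RLP26, between them, was lower, though RLP26 and RLP27 are identical at 80.7% of 2384 aligned coding bases. In the pair of RLP22 and RLP23, RLP22 had 0 counts in ka120 and Col-0. In the pair of RLP30 and RLP31, RLP31 was not called (10.8, 8.59 and 15.3 CPM in ka120, 8.4, 13.4 and 9.14 CPM in Col-0).

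**Figure D4:**
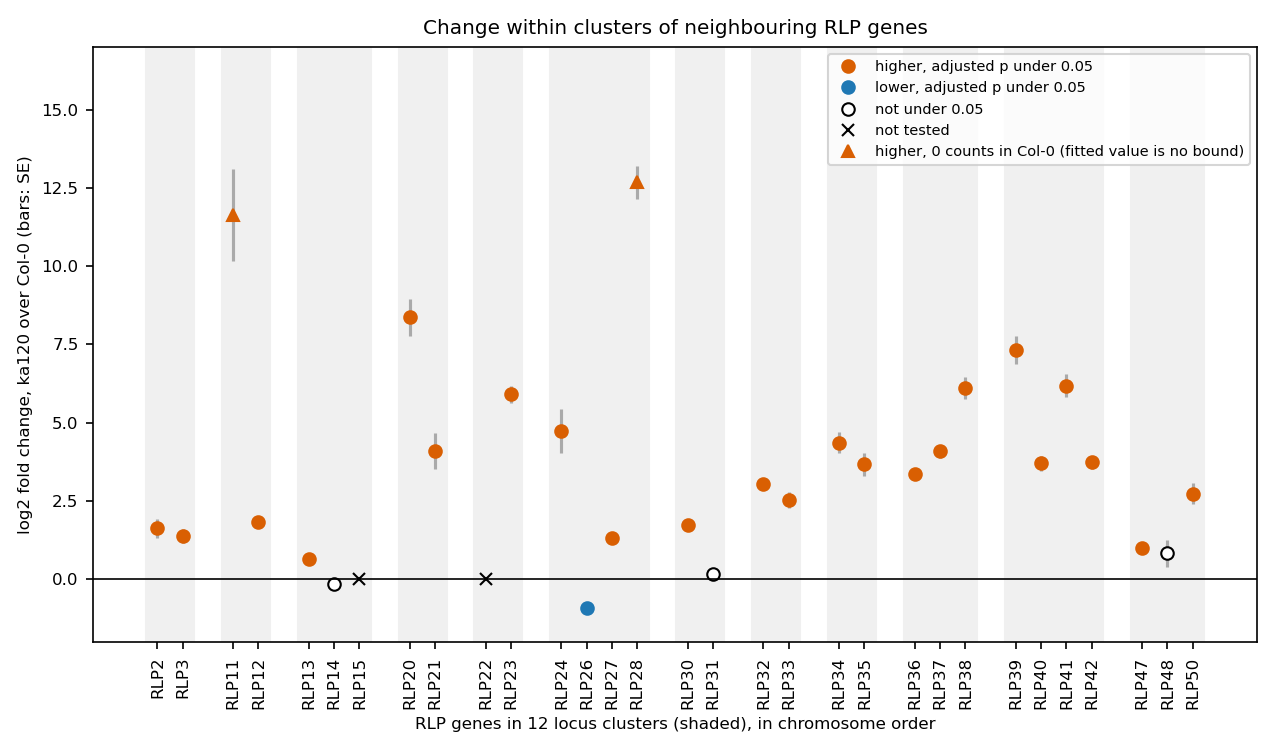
Log2 fold change of ka120 over Col-0 (vertical axis, bars are SE) for the 31 RLP genes in 12 locus clusters, each shaded, in chromosome order. RLP26 is the only lower call in a cluster; the triangles of RLP11 and RLP28 are fitted values against 0 counts in Col-0 and are no bound, and crosses mark RLP15 and RLP22, which were not tested.

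The partners through which RLPs signal were followed as lists of named genes. In the list of SOBIR1 and the co-receptors, 6 of the 9 tested genes were higher in ka120 than in Col-0 and 2 lower, where 28.0% of all tested genes were higher and 27.0% lower, with a median log2 fold change of 0.80. SOBIR1 had 125, 254 and 145 CPM in ka120 pad4, 203, 342 and 249 CPM in ka120 ndr1, 403, 409 and 271 CPM in ka120, and 31.7, 28.5 and 35.7 CPM in Col-0 (3.50 ± 0.28). Its order of genotypes was that of RLP23. BIR1, an inhibitor of BAK1 complexes (2.74 ± 0.29), SERK4 (1.82 ± 0.20) and SERK5 (1.42 ± 0.13), co-receptors related to BAK1, were also higher, while BAK1 itself differed less (0.80 ± 0.09), at 43 to 47.7 CPM in ka120 and 23.6 to 28.3 CPM in Col-0. BIR3 (-0.62 ± 0.09) and SERK2 (-0.55 ± 0.12) were lower, and BIR4 had 0 counts in every library.

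Of 10 genes listed for signalling downstream of RLPs, 9 were higher in ka120 and PBL31, a cytoplasmic kinase, was not called. Whether RLPs need each gene on this list was not tested. The genes called higher were led by PAD4. These genes included PAD4 (4.05 ± 0.35), the helper receptors ADR1-L1 (2.99 ± 0.19) and ADR1-L2 (2.79 ± 0.14), SAG101 (2.51 ± 0.20), a lipase-like partner of EDS1, and EDS1 (2.34 ± 0.32). Among the 11 partners of CLV2 and TMM, 1 was higher and 5 were lower, beside the same shares of 28.0% and 27.0% of all tested genes, and the median was -0.30. The lists were not tested against each other. EPF2, a peptide that acts with TMM, was higher (0.87 ± 0.14), and the receptor kinases BAM2 (-0.77 ± 0.17), CLV1 (-0.76 ± 0.14), ER (-0.40 ± 0.08) and BAM3 (-0.30 ± 0.10, a call lost without 3 single libraries) and the peptide EPFL9 (-0.59 ± 0.12) were lower. Of 5 markers of the stomatal lineage, where TMM is transcribed, MUTE (0.69 ± 0.18) and BASL (0.64 ± 0.17) were higher, FAMA was lower (-0.40 ± 0.11), and SPCH and POLAR were not called.

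Many RLPs were lower in ka120 pad4 than in ka120. Without a single pad4 mutant, an effect of pad4 on its own cannot be told apart from one on the response to ka120. In ka120 pad4 against ka120, 22 members were called lower and 2 higher, where 8.39% of all tested genes were lower and 9.83% higher. The median of the members was -0.59, against 0.00 for all genes tested. The largest decreases were those of RLP11 (log2 -2.68 ± 0.67, adjusted p = 0.0209), RLP28 (-2.33 ± 0.22, adjusted p = 6.82e-04) and RLP20 (-1.74 ± 0.34, adjusted p = 0.00521), whose values are given above. Of the receptors with a described ligand, RLP32 (-1.58 ± 0.17), RLP42 (-1.27 ± 0.19) and RLP23 (-1.26 ± 0.22) were lower. RLP30 stood at 0.01 ± 0.17 and RLP1 at -0.07 ± 0.39. The resistance gene RLP52 was lower too (-1.44 ± 0.33), and RLP3 was not called (-0.33 ± 0.22).

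Further lower members were RLP39 (-1.59 ± 0.31), RLP53 (-1.57 ± 0.42), RLP43 (-1.55 ± 0.24), RLP38 (-1.39 ± 0.27), RLP7 (-1.38 ± 0.32), RLP41 (-1.29 ± 0.29), RLP33 (-1.20 ± 0.25), RLP34 (-1.19 ± 0.30) and RLP40 (-1.12 ± 0.21). RLP9, RLP50, RLP46, RLP19, RLP36 and RLP37 fell by less, between -0.98 ± 0.23 and -0.62 ± 0.18. RLP26 (0.69 ± 0.18) and RLP51 (0.40 ± 0.12) were higher. The count of lower members was 13 without ka120 replicate 2 and 14 without ka120 pad4 replicate 1. The calls of RLP7, RLP9, RLP11, RLP34, RLP37, RLP46, RLP50, RLP52 and RLP53, and both higher calls, each ended without at least 1 library, with adjusted p up to 0.175. Those of the other 13 lower members were kept without each library. In the limma fit to the deposited log2 values, RLP7 (adjusted p = 0.19), RLP20 (adjusted p = 0.117), RLP50 (adjusted p = 0.0764) and RLP53 (adjusted p = 0.0693) were not called, and RLP37 was not called with the compared groups alone (adjusted p = 0.0519).

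Of the partner genes, SOBIR1 (-1.05 ± 0.26, adjusted p = 0.016), SERK4 (-0.68 ± 0.20) and SERK5 (-0.48 ± 0.13) were lower in ka120 pad4 than in ka120, calls that each ended without 4 single libraries. Of the 10 downstream genes, 7 were called lower, where 8.39% of all tested genes were, among them EDS1 (-1.08 ± 0.31) and PAD4 (-2.75 ± 0.32). PAD4 is the gene mutated in ka120 pad4, so for PAD4 a response cannot be told apart from the mutation acting on its own transcript. The calls of EDS1 (adjusted p up to 0.114) and ADR1-L2 (adjusted p up to 0.0904) each ended without 4 single libraries, that of BIK1 without 2 and that of SAG101 without 1. CLV2 (-0.13 ± 0.15) and TMM (-0.02 ± 0.13) were not called, and the median of their 11 partners was 0.13.

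Some RLPs were also lower when ndr1 was added to ka120. In ka120 ndr1 against ka120, 8 members were called lower and 1 higher, where 2.74% of all tested genes were lower and 3.20% higher, and the median of the members was -0.40. RLP7 (-1.85 ± 0.32), RLP28 (-1.59 ± 0.22), RLP43 (-1.14 ± 0.23), RLP32 (-1.08 ± 0.17), RLP40 (-0.97 ± 0.21), RLP33 (-0.92 ± 0.24), RLP19 (-0.90 ± 0.14) and RLP42 (-0.74 ± 0.19) were the lower ones, and RLP45 was higher (0.43 ± 0.11, adjusted p = 0.0358). RLP28 (adjusted p = 0.00674), RLP19 (adjusted p = 0.00799) and RLP32 (adjusted p = 0.0084) kept their calls without each library. The other 5 lower calls and that of RLP45 did not, with adjusted p up to 0.188, and the count of lower members was 3 without ka120 replicate 1, ka120 replicate 2 or ka120 ndr1 replicate 1 and 4 without ka120 ndr1 replicate 3. RLP23 (-0.40 ± 0.22, adjusted p = 0.298), RLP30 (0.09 ± 0.17), RLP52 (-1.09 ± 0.33, adjusted p = 0.0692) and SOBIR1 (-0.45 ± 0.26) were not called, and of the downstream list ADR1 was lower (-0.45 ± 0.09), a call that ended without each of 4 single libraries (adjusted p up to 0.113).

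**Figure D5:**
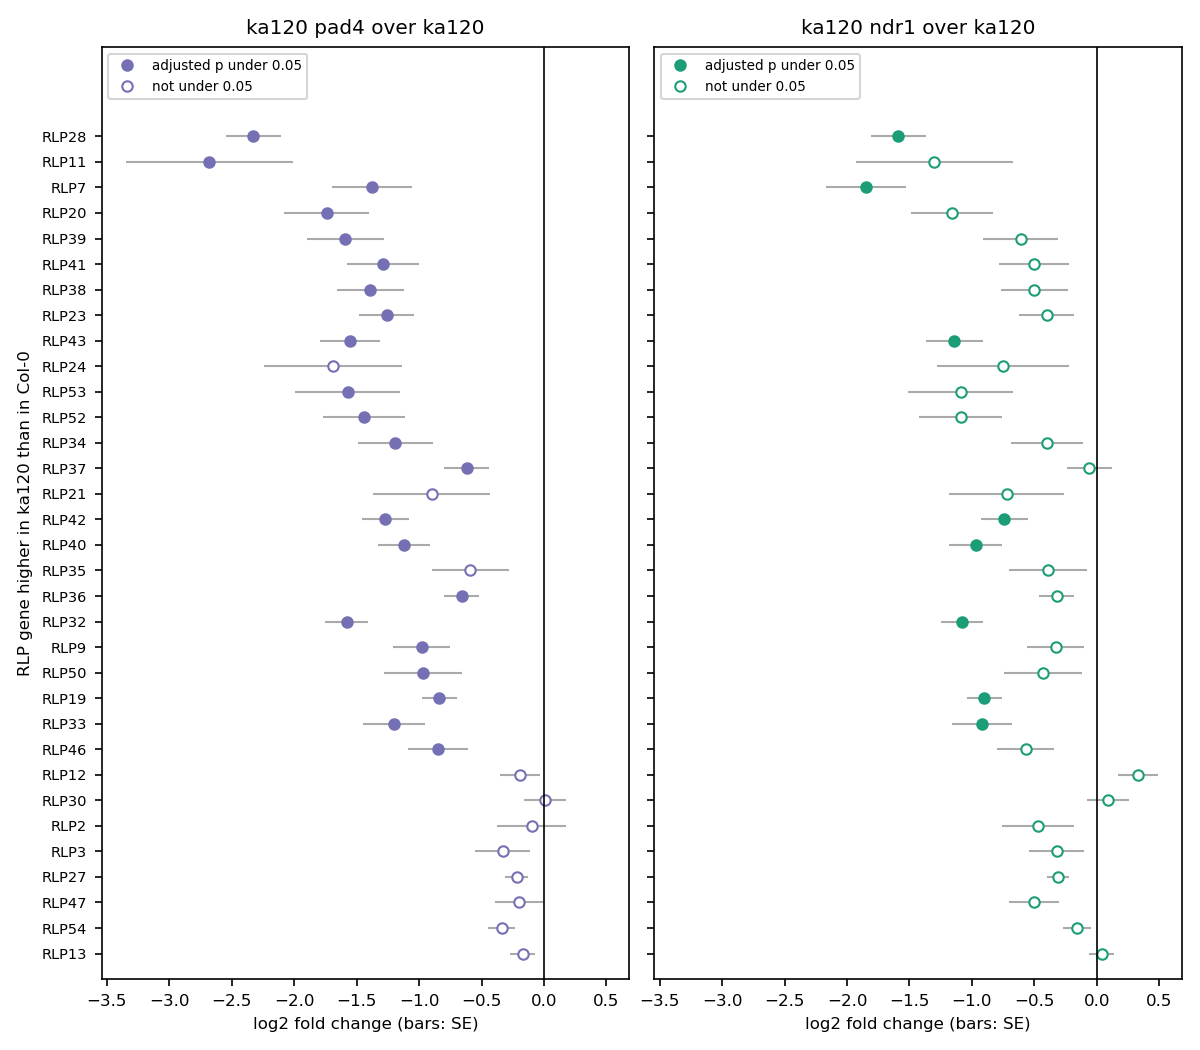
Log2 fold change of ka120 pad4 over ka120 (left) and of ka120 ndr1 over ka120 (right), with SE bars, for the 33 RLP genes that were higher in ka120 than in Col-0; filled points have an adjusted p under 0.05 and open points do not. Most points lie left of 0 in both panels, from RLP11 at -2.68 on the left and RLP7 at -1.85 on the right, and RLP30 lies near 0 in both. Both panels share the ka120 libraries, and the genes were taken for being high in them, which favours points left of 0.

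The double mutants were also set against each other, which tests whether the effects differ. With ka120 pad4 over ka120 ndr1, edgeR called 0 members, where 1.51% of all tested genes were higher and 0.886% lower. At an unadjusted p under 0.05 there were 14 members, 12 lower and 2 higher, and DESeq2 called 3 lower, among them RLP23 (adjusted p = 0.0275). By edgeR, RLP23 had the smallest adjusted p (-0.86 ± 0.22, adjusted p = 0.0632). Its 3 ka120 pad4 libraries lay below all 3 ka120 ndr1 libraries, but only narrowly (closest at 68.9 and 69.3 CPM). Without ka120 pad4 replicate 2, 8 members were called lower, among them RLP23 (-1.14, adjusted p = 0.017), RLP39 (-1.46, adjusted p = 0.0124) and RLP41 (-1.25, adjusted p = 0.0139). The shares of all tested genes at the unadjusted p, with DESeq2 and without ka120 pad4 replicate 2 are not given here. The member counts at these settings therefore have no background beside them. The median of the members was -0.18, against 0.0 for all genes tested.

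Single libraries of the double mutants stood apart in these genes. Among the 33 members higher in ka120 than in Col-0, ka120 pad4 replicate 2 was the highest of its group in 23 and ka120 ndr1 replicate 2 in 24, while ka120 replicate 3 was highest in 3. SOBIR1, EDS1 and PAD4 were highest in the same libraries, with EDS1 at 83.2 CPM in ka120 pad4 replicate 2, against 32.1 and 41.9 CPM in the other ka120 pad4 libraries.

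Both double mutants stayed above Col-0 in most of the family. In ka120 pad4 against Col-0, 34 members were higher and 3 lower (21.6% and 20.3% of all tested genes), with a median of 1.64, and in ka120 ndr1 against Col-0, 32 were higher and 5 lower (24.9% and 23.5%), with a median of 1.83. These comparisons share the Col-0 libraries. RLP28 was at least 11.2-fold higher in ka120 pad4 than in Col-0 and at least 18.7-fold higher in ka120 ndr1. RLP11 was at least 4.22-fold and at least 11.1-fold higher. RLP31, not called in ka120, was higher in ka120 pad4 than in Col-0 (0.76 ± 0.20, adjusted p = 0.00964), with 18.8, 15.5 and 17.8 CPM in ka120 pad4. RLP44, RLP57 and RLP4 were lower in ka120 pad4, and RLP44, RLP29, RLP51, RLP57 and RLP4 in ka120 ndr1, where the calls of RLP29 and RLP57 ended without single libraries (adjusted p up to 0.089).

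As a share of the level in ka120, the 33 members had a median of 46.0% in ka120 pad4, between 15.6% for RLP11 and 101% for RLP30. In ka120 ndr1 the median was 70.5%, between 27.8% for RLP7 and 126% for RLP12. The mean of ka120 pad4 lay between those of Col-0 and ka120 in 32 of the 33, with RLP30 as the exception, and that of ka120 ndr1 in 30, with RLP12, RLP13 and RLP30 as exceptions. Since these 33 were taken for being high in the same ka120 libraries, the shares are a description.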

How the data were processed

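RNA was sequenced from rosette leaves of 12 samples, 3 per genotype. The submitters' processing notes name TAIR10, HTSeq 0.6.1p1 and HISAT2 2.0.4, without their roles or a strand setting. The authors deposited a gene table whose values were whole numbers and were treated as estimated counts. Between 45.7% and 48.1% of the values from 4 to 40 were multiples of 4, against 25% by chance, and the sources used here do not say which program wrote it. Normalised log2 values that the authors deposited served for 1 alternative only.

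Counts were tested with edgeR 4.0.16 in R 4.3.3 (quasi-likelihood F test, TMM factors, default filter on low counts with a minimum of 10, all 12 libraries, 8 residual degrees of freedom), and p-values were adjusted by Benjamini-Hochberg over 22351 genes in each of 6 comparisons. CPM use effective library sizes. Each SE was taken as the size of the log2 fold change divided by the root of its F value. A count of 0 was bounded by 12 counts per library, 3 steps of 4, which covers counting error only. Alternatives used DESeq2 1.42.0, limma 3.58.1, other scaling, filters and sample sets, and each library left out in turn. The fit was tested on simulated data. Annotation, exon lengths and windows came from RefSeq TAIR10.1, and window pairs were aligned with Biopython 1.88. KA120 was matched to AT3G08960 from background knowledge.

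Values in every library are given for members with a described role, the 10 largest non-overlapping calls of ka120 against Col-0, up to 6 lower members and the 3 largest calls of each other comparison, and other members are given by their fold changes or ranges. RLP4, RLP31 and the window of RLP53 were singled out after their values or sequences were seen. Partner genes named are the 4 per list with the largest change, with SOBIR1, BAK1, EDS1 and PAD4 in any case; the others named were added after their values were seen. The members and lists were chosen with earlier results of these data known.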

Additional observations from a re-analysis of the deposited data

How the results depend on the processing

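All 33 members called higher in ka120 against Col-0 kept the call in every alternative run and without each library, where the counts were 33 to 34 higher and 6 to 8 lower. For ka120 pad4 against ka120, leaving out single libraries gave 13 to 24 lower and 0 to 3 higher; the 2 higher became 1 with no filter or with the compared groups alone, and 4 with DESeq2. For ka120 ndr1 against ka120 the ranges were 3 to 10 lower and 0 to 2 higher; the 1 higher became 0 with the compared groups alone and 2 with DESeq2. Against Col-0 they were 33 to 34 higher and 3 to 5 lower in ka120 pad4, and 32 to 34 higher and 3 to 6 lower in ka120 ndr1. Between the double mutants, 0 to 8 were lower and 0 higher, and DESeq2 called 3 lower.

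Replicate numbers did not pair the libraries: deviations of same-numbered libraries correlated at -0.0546 to 0.106, over 0.1 in 1 of 18 pairs. With the replicate number as a block, ka120 ndr1 against ka120 had 2 higher, and ka120 pad4 against ka120 ndr1 had 2 lower, RLP23 (-0.87, adjusted p = 0.029) and RLP39 (-1.04, adjusted p = 0.0419).

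The sign of 2 uncalled genes for ka120 over Col-0 turned: without single libraries CLV2 ran between -0.11 and 0.09 (Col-0 replicate 1 left out, with 0.00 when ka120 replicate 2 was) and TMM between -0.10 (ka120 replicate 3 left out, with -0.08 when Col-0 replicate 2 was) and 0.09 (Col-0 replicate 3 left out). The cause was not tested. With 3 libraries per genotype and low levels, as in RLP6, RLP48 and RLP55, the SE limits what can be called.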

Other observations

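RLP1 was at 0.97 CPM in ka120 ndr1 replicate 2, against 3.89 and 5.18 CPM in the other ka120 ndr1 libraries and 4.91 to 7.06 CPM in the 9 libraries of the other genotypes. For ka120 ndr1 over Col-0 its log2 fold change was -0.88 ± 0.40 (adjusted p = 0.0848 by edgeR), and it was called with DESeq2 (-0.89, adjusted p = 0.0416) and with limma on the deposited log2 values (-1.19, adjusted p = 0.0439).

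RLP15 had a count in 1 of the 12 libraries, ka120 pad4 replicate 1 (0.0691 CPM). RLP22 had counts in 4 libraries of the double mutants (0.0673 to 0.166 CPM) and 0 in all libraries of ka120 and Col-0.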
